A study of Caenorhabditis elegans with 2 samples.

Results

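The cuticle collagen genes of Caenorhabditis elegans were examined for nearby binding of UNC-62 in second-stage (L2) larvae. Members were taken by name from the Ensembl annotation of build WBcel235: protein-coding genes named col-, and bli-1, bli-2, dpy-2, dpy-3, dpy-5, dpy-7, dpy-8, dpy-9, dpy-10, dpy-13, dpy-17, rol-6, rol-8, sqt-1, sqt-2 and sqt-3. This gave 172 genes of 19973 protein-coding genes on the nuclear chromosomes, 156 of them named col-. Binding was measured by chromatin immunoprecipitation followed by sequencing of whole animals, not separated by sex, in 2 biological replicates. Strain OP600 carries the allele unc119(ed3) and the transgene wgIs600, which holds unc-62 fused to TY1, EGFP and FLAG tags along with unc119 sequence. Both replicates share this genotype, and no second condition, untagged strain or control library was analysed here. In whole animals, strong binding in few cells and weak binding in many cannot be told apart.

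The nematode cuticle is an extracellular coat secreted by the epidermis and built mainly of small collagens, which are made anew at each larval moult. Chains carry Gly-X-Y repeats, are hydroxylated and assembled in the secretory pathway, are trimmed by proteases, and are crosslinked in the matrix. Different collagens form different structures, such as the annular furrows and the struts, and mutants have blistered, dumpy, roller or squat bodies. UNC-62 is the worm's homeodomain protein of the MEIS type, which binds DNA with PBC and Hox partners.

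The deposited lists hold peaks with a signal value that the authors made against a control. The pooled list of both replicates has 28005 candidates, background included, each replicate's list has 30000, and the reproducible set has 414 peaks, which are the highest of the pooled list. Signal scales differ between lists, so replicates are compared by rank, where rank 1 is the highest signal. A candidate was given to a gene when that gene's 5' end, the outermost of its annotated transcripts, was the nearest protein-coding 5' end within 5000 bp of the summit. Nearness does not make a gene a target, and the number of reads behind a peak is unknown.

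A candidate lay nearest to 107 of the 172 collagen genes (62.2%, exact 95% interval 54.5 to 69.5), against 63.3% of all protein-coding genes. A reproducible peak lay nearest to 3 of the 107 (2.80%, exact interval 0.582 to 7.98), against 2.71% of all genes with a candidate. These were col-17, col-130 and col-185, which encode cuticle collagens. Both shares were close to those of all genes. The count of 3 rests on the settings: it was 1 in the top 414 of either replicate's list alone, 1 within 2000 bp and 0 within 1000 bp. The intervals cover counting of genes only, and neighbouring collagen genes are not independent.

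The sequences around the summits of these 3 peaks follow, because they are the collagen family's entries in the reproducible set. The fourth is the candidate just upstream of rol-6, a collagen gene whose dominant allele gives a roller body. This candidate was not picked by signal. It ranked 4657 in the pooled list, whereas the next member by signal, col-176, ranked 723. Each sequence is 201 bases of the WBcel235 plus strand, with the 21 bases centred on the summit in capitals.
col-17 (chrII:4866246-4866446): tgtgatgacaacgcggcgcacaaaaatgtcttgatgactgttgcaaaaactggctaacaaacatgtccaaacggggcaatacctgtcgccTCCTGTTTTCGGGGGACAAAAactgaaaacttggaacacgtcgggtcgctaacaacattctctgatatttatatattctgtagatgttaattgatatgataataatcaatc
col-130 (chrIV:12425717-12425917): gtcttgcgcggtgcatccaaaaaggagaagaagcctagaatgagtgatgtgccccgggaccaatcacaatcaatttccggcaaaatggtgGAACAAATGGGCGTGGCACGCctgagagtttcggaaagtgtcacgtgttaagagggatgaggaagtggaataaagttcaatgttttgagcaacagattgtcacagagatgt
col-185 (chrX:13514496-13514696): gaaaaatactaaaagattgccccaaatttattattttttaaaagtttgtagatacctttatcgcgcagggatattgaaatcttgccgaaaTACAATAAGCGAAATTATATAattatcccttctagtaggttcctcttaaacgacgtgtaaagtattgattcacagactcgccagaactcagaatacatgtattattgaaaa
rol-6 (chrII:8732859-8733059): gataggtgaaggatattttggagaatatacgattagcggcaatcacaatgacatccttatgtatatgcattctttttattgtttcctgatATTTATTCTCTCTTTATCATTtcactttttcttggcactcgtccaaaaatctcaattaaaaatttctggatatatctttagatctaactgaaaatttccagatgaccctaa

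The strongest peak was that of col-17, with a pooled signal of 39.5 (rank 183; chromosome II 4866178 to 4866513). It ranked 482 in replicate 1 (signal 17.8) and 127 in replicate 2 (signal 18), so it stood high in both. The summit lay in intergenic sequence 1230 bp downstream of the 5' end, past the 3' end of this gene of the minus strand (4866436 to 4867576). The next 5' ends belonged to F11G11.14, at 2665 bp, and mpst-4, at 2889 bp, and col-20 lay at 4445 bp.

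The col-185 peak had a pooled signal of 29.6 (rank 372; chromosome X 13514428 to 13514763) and ranked 751 in replicate 1 (signal 15.2) and 455 in replicate 2 (signal 11.7). It lay 3499 bp upstream of col-185, with the 5' end of cdk-4, a cyclin-dependent kinase gene, at 4315 bp on the other side. The col-130 peak had a pooled signal of 35.3 (rank 237; chromosome IV 12425649 to 12425984) and ranked 102 in replicate 1 (signal 34.8), but no candidate of replicate 2 overlapped it. The best replicate 2 candidate nearest to col-130 elsewhere ranked 7379. The replicates therefore stood together at col-17 and col-185 and apart at col-130, although all 3 peaks are in the reproducible set.

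The col-130 summit lay 2699 bp downstream of that gene's 5' end, past its 3' end and in an intron of ugt-65, a UDP-glucuronosyltransferase gene whose outermost 5' end is 5134 bp away. When the 5' ends of all annotated transcripts competed, col-130 no longer had the peak, and 2 members, col-17 and col-185, kept a reproducible peak. No reproducible peak lay in the promoter of a collagen gene, which spans 1000 bp before and 200 bp after the 5' end (0 of 107, exact 95% interval 0 to 3.39%), against 1.47% of all genes with a candidate.

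Further down the pooled list, with the reproducible peaks still counted, the collagen genes were not ahead of other genes. The top 1000 of the pooled list held a candidate of 4 of 107 members (3.74%, exact interval 1.03 to 9.30), against 6.16% of all genes, and the top 2000 held one of 7 (6.54%, exact interval 2.67 to 13), against 12.1%. The fourth was col-176, with a signal of 22.4 (rank 723), and the others were col-94, col-133 and col-75. The highest signal per gene had a median of 9.32 over the 107 members (quartiles 8.27 and 11.7) and 10.1 over 12634 genes (quartiles 8.34 and 12.7). The median rank was 12608 for collagen genes and 9801.5 for all genes.

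Collagen genes were shorter than most genes and had less sequence each in which a candidate could be counted. Gene length had a median of 1220 bp, against 2027 bp for all genes. The stretch nearest to the 5' end within the distance limit had a median of 3249.5 bp, against 3858.5 bp. Per kb of that stretch there were 0.287 candidates for collagen genes (186 in 648 kb) and 0.282 for all genes. Reproducible peaks numbered 4.63 per Mb, from only 3 peaks, and 4.23 per Mb. Among genes with 1 candidate the median signal was 8.68 for 58 members and 8.94 for 6231 genes, and with 2 candidates it was 9.26 for 29 members and 10.5 for 3427 genes. With 3 candidates the order turned, at 13.2 for 14 members and 11.6 for 1693 genes.

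**Figure D1:**
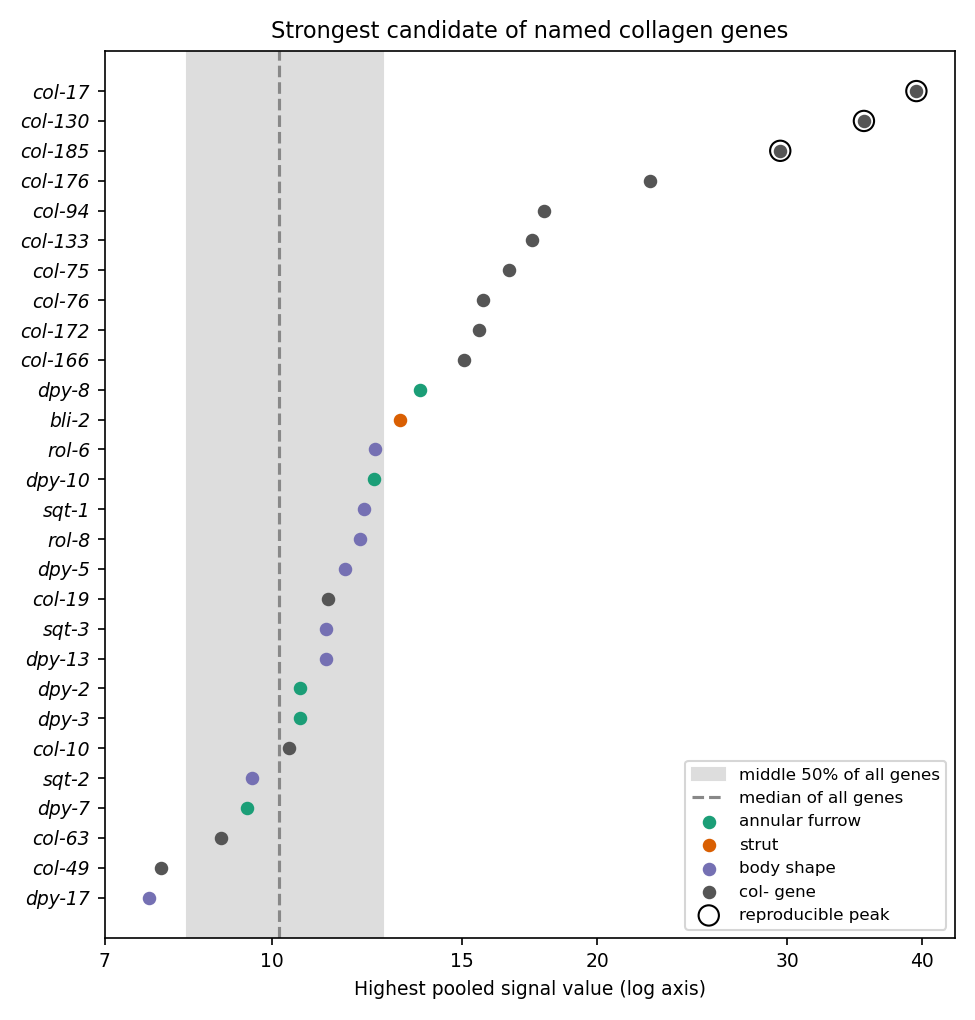
Highest pooled signal (log axis) of the named collagen genes that have a candidate, coloured by role. The shaded band and dashed line give the quartiles (8.34 and 12.7) and the median (10.1) of all genes with a candidate. Ringed points (col-17, col-130 and col-185) have a reproducible peak, and the genes named bli, dpy, rol or sqt lie between 7.70 and 13.7.

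None of the 16 members known from body shape mutants had a reproducible peak, and none had a candidate in the top 2000 of the pooled list, against 2.71% and 12.1% of all genes with a candidate. With 14 of the 16 having a candidate, counts of 0 are near that background. Of the 6 annular furrow collagens, needed for the circumferential grooves of the cuticle, 5 had a candidate, against 63.3% of all genes, with signals from 9.49 to 13.7. The highest was dpy-8, 220 bp into the gene in an intron, which ranked 2851 in replicate 1 and 23699 in replicate 2. Then came dpy-10 at 12.4, past its 3' end, which ranked 14119 in replicate 1 and 1850 in replicate 2. Each was thus high in a different replicate. The dpy-2 candidate lay at the promoter, 103 bp upstream, with a signal of 10.6, and ranked 1836 in replicate 1 and 11672 in replicate 2. The dpy-3 candidate (10.6) was overlapped in replicate 1 only, at rank 6457, and that of dpy-7 (9.49) in replicate 2 only, at rank 5350. No candidate of any list was given to dpy-9. A candidate with a signal of 16.6 (rank 1675) lay 5075 bp from dpy-3, just outside the distance limit, while the farthest one inside belonged to col-99, which encodes a transmembrane collagen and was taken by its name, at 4788 bp with a signal of 7.35.

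The strut collagens BLI-1 and BLI-2 build the columns that join the layers of the adult cuticle. The bli-2 gene had 1 candidate, with a signal of 13.1, that ranked 10870 in replicate 1 and 6508 in replicate 2. Its summit lay past the 3' end of bli-2 in a coding exon of zyg-1, a centriole kinase gene of the opposite strand whose span holds bli-2. For bli-1 the pooled list and replicate 2 gave none, and the best of replicate 1 ranked 15092.

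All 8 of the other body shape collagens had a candidate, against 63.3% of all genes, with signals from 7.70 to 12.5 and a median of 11.5. Lists this small give such shares little precision, here and for the annular furrow collagens. The rol-6 gene had 6 candidates, more than any other member. The strongest (12.5) lay 91 bp upstream of the 5' end and ranked 1872 in replicate 1, with no overlapping candidate in replicate 2, where the best rol-6 candidate elsewhere ranked 2177. The next (12.3) lay 1248 bp upstream, and 5 of the 6 were upstream. For sqt-1, another gene with roller alleles, 5 candidates were found, the strongest (12.2) past the 3' end, with ranks of 13856 in replicate 1 and 606 in replicate 2. The rol-8 gene also had 5, the strongest (12.1) ranking 3581 in replicate 1 and 12598 in replicate 2. For each of these 3 candidates 1 replicate ranked it far higher than the other, or alone, but other candidates of these genes ranked 2725 in replicate 1 (sqt-1) and 1625 in replicate 2 (rol-8).

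The collagens SQT-3 and DPY-17 are both needed for a normal body shape. The strongest candidate of sqt-3 (11.2) lay in its 3' UTR and ranked 26689 in replicate 1 and 981 in replicate 2, while another sqt-3 candidate ranked 741 in replicate 1. That of dpy-17 was the weakest of the named group (7.70), 311 bp upstream, and ranked 22373 in replicate 1 with no overlap in replicate 2. The dpy-13 candidate (11.2), past the 3' end, ranked 842 in replicate 1 with no overlap in replicate 2, where another ranked 3521. The dpy-5 candidate (11.7) ranked 3574 in replicate 1 and 18105 in replicate 2. The sqt-2 candidate (9.59), 57 bp upstream, was overlapped in replicate 2 only, at rank 2090. None of these 5 best candidates ranked within 2000 in both replicates, against 3.46% of the best candidates of all genes. Among only 5 genes, finding none is near that background.

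Of the 11 annotated genes on a list of collagens used at particular stages, 5 had a candidate, against 63.3% of all genes, and 11 genes are too few to tell these apart. The adult collagen gene col-19 had 4, the strongest with a signal of 11.3 and ranks of 14509 in replicate 1 and 20415 in replicate 2. A candidate of replicate 2 within the gene ranked higher, at 651. For col-10 a candidate 78 bp upstream (10.4) ranked 23128 in replicate 1 and 6563 in replicate 2, while col-63 (8.98) and col-49 (7.90) had candidates in their coding exons. No pooled candidate was given to col-2, a gene of the dauer larva, to col-7, an adult collagen gene, or to col-12, col-13, col-38 and col-62.

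**Figure D2:**
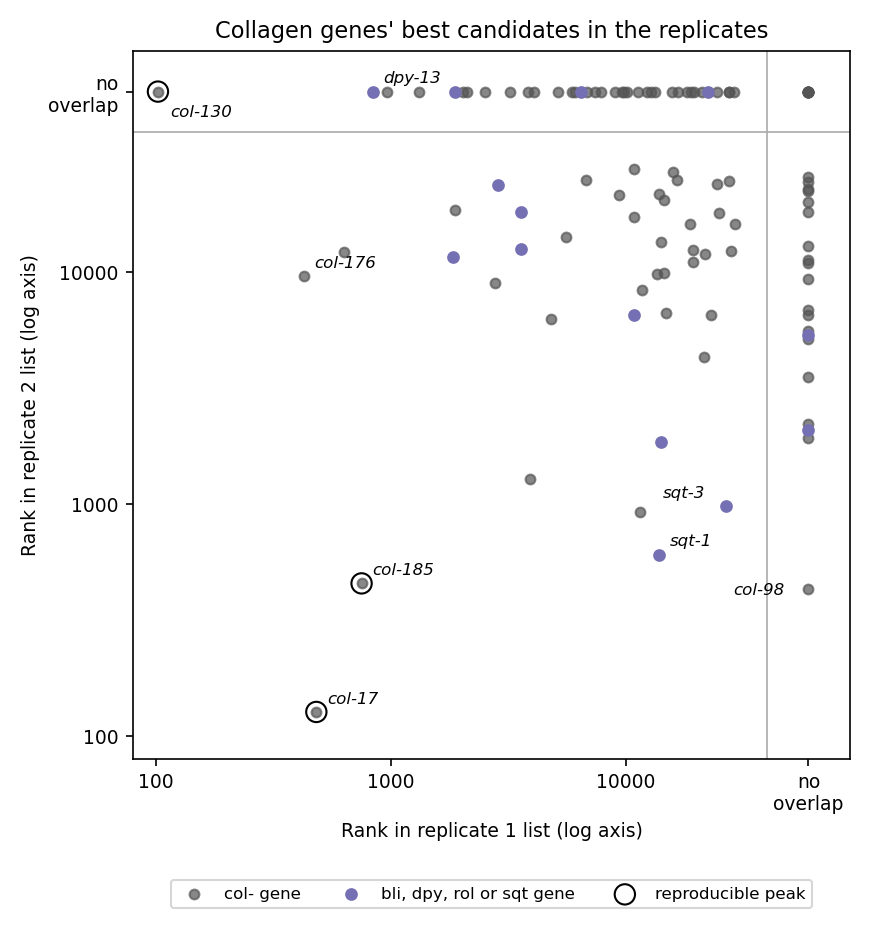
Ranks of the 107 collagen genes' best pooled candidates in the list of replicate 1 (horizontal, log axis) and replicate 2 (vertical, log axis). Points in the outer strips have no overlapping candidate in that list. The lower left corner holds col-17 and col-185, and col-130 lies in the upper strip at rank 102 in replicate 1.

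With no limit on rank, the replicates shared candidates of collagen genes about as often as those of all genes. Within rank 5000 in both, the share was lower for collagen genes, but it rests on 3 of 107 members. Its exact 95% interval (0.582 to 7.98%) holds the 6.25% of all genes. Both replicates' own lists held a candidate of 51.7% of collagen genes, against 49.9% of all genes. The best pooled candidate was overlapped by at least 1 bp in both replicate lists for 42 of 107 members (39.3%), against 36.9% of all genes. It was overlapped in replicate 1 only for 34.6%, against 35.2%, in replicate 2 only for 18.7%, against 20.2%, and in neither for 7.48%, against 7.76%. It ranked within 1000 in both for 2 members, col-17 and col-185 (1.87%), against 2.51% of genes, and within 5000 in both for 3 (2.80%), against 6.25%. The third was col-172, with a signal of 15.6, whose candidate 915 bp upstream ranked 3897 in replicate 1 and 1286 in replicate 2. This was also the only promoter candidate among the 10 members of highest signal.

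Each replicate's list was also assigned to genes on its own. In replicate 1 a candidate lay nearest to 65.1% of collagen genes, against 66.1% of all genes, and in replicate 2 to 69.8%, against 65.7%. The top 414 of replicate 1 held 1 of 112 members (0.893%), col-130, against 2.61% of genes, and the top 414 of replicate 2 held 1 of 120 (0.833%), col-17, against 2.49%. The next members in replicate 1 were col-176 (rank 428), col-17, col-94 (635) and sqt-3 (741). In replicate 2 they were col-98 (430), col-185, sqt-1 and col-19. Of the 65 members without a pooled candidate, 20 had one in replicate 1 and 29 in replicate 2, none ranking higher than 1691. The other 26 had none in any list, which is 15.1% of the 172 members, against 16.6% of all genes.

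**Figure D3:**
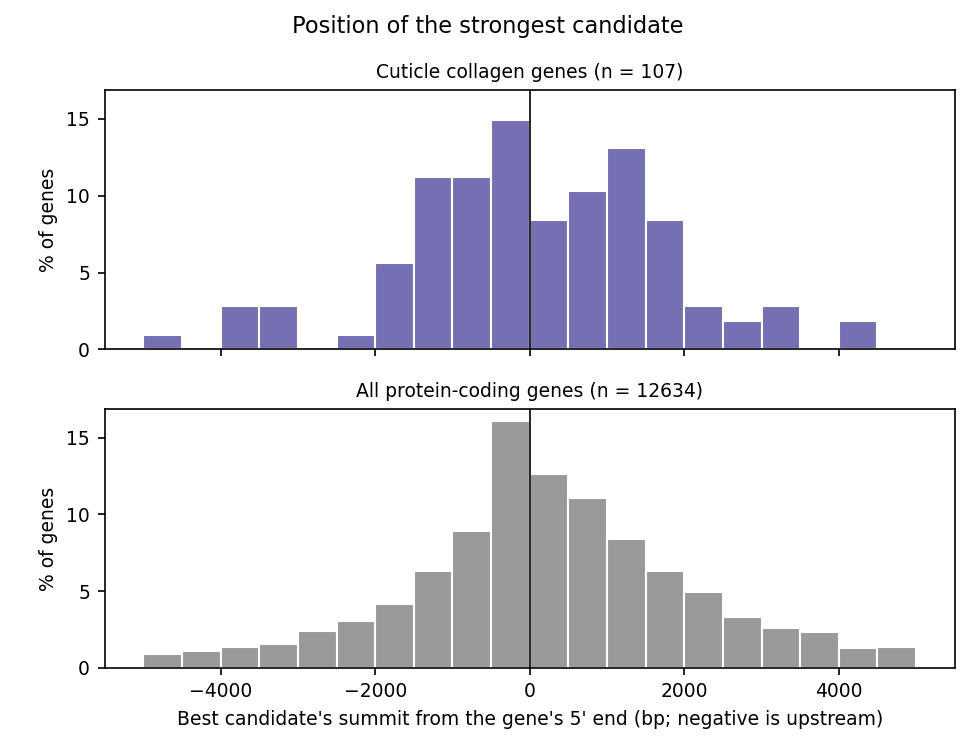
Summit of each gene's strongest candidate relative to its 5' end in bins of 500 bp (negative is upstream), as percent of 107 collagen genes (top) and 12634 protein-coding genes (bottom). The bin from 1000 to 1500 bp downstream holds 14 collagen genes (13.1%, against 8.36% of all genes), with 11 and 9 in the bins beside it. Counts this small give single bins little precision.

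The best candidate lay upstream for 54 of 107 collagen genes (50.5%), against 45.8% of all genes. It lay within the gene for 26 (24.3%), against 43.0%, and past the 3' end for 27 (25.2%), against 11.1%. Genes of at most 1500 bp made up 71.5% of the family and 34.7% of all genes. Among those with a candidate, 33.8% of the collagen genes and 25.1% of all genes had it past the 3' end. The col-17, col-130, col-176, col-133, col-75 and col-166 candidates were of this kind. Promoter summits made up 29.0% (31 of 107), against 30.6%. By annotation the summit was intergenic for 48.6%, against 40.6%, in an intron of any gene for 26.2%, against 27.6%, and in a coding exon for 20.6%, against 25.6%.

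**Figure D4:**
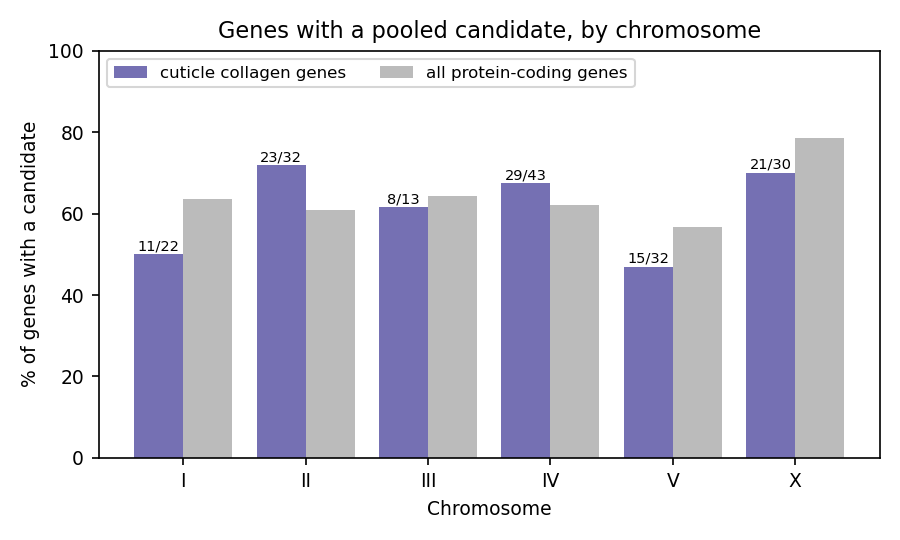
Percent of genes with a pooled candidate on each chromosome, for cuticle collagen genes (left bars, with counts) and all protein-coding genes (right bars). Collagen genes range from 46.9% on chromosome V to 71.9% on chromosome II.

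Collagen genes are spread unevenly, with 43 on chromosome IV and 13 on chromosome III. The share with a candidate was 46.9% on chromosome V (15 of 32), against 56.6% of all genes there, and 71.9% on chromosome II (23 of 32), against 60.9%. On the X chromosome it was 70.0% (21 of 30), against 78.5%. The median signal of the members was lowest on V (8.44, against 9.70) and highest on II (10.9, against 9.98). Groups of 13 to 43 genes give these shares little precision.

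Sequence near the summits did not set the family apart in the measures taken. GC content within 100 bp of the best summit had a median of 37.3%, against 36.3% for all genes. On either strand, the MEIS core TGACAG was in this window for 8 of 107 members (7.48%), against 7.77% of genes. It was in the window of 7.97% of all 28005 candidates and of 11.6% of the 414 reproducible peaks. GAGAGA was present for 19 (17.8%), against 15.1% of genes, 14.6% of all candidates and 50.7% of the 414 reproducible peaks. Sites of these motifs can overlap by at most 1 base. Neither was found in the col-17, col-130 or col-185 windows printed above. The rol-6 window holds the reverse complement of GAGAGA within its capitals, starting 4 bp before the summit and running across it.

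Other genes of cuticle building were described from lists of known roles. No gene of these lists had a reproducible peak, against 2.71% of all genes with a candidate, so that a count of 0 in lists of this size is near the background. Of 14 collagen processing genes, 12 had a candidate, against 63.3% of all genes. Shares from lists this small have little precision, here and for the matrix genes and regulators below. The strongest was pdi-2, which encodes the disulfide isomerase subunit of prolyl 4-hydroxylase, with a signal of 21.1 (rank 823) 2500 bp downstream of its 5' end. It ranked 1770 in replicate 1 and 1369 in replicate 2. Next came phy-2, for a catalytic subunit of the same enzyme (15.7), and dpy-31, for the protease that trims SQT-3 (15.6), overlapped in replicate 1 only.

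Of 11 genes for other cuticle and apical matrix proteins 10 had a candidate, against 63.3% of all genes, led by the lipocalin gene lpr-3 (19.5) and the zona pellucida domain gene noah-1 (17.5). Of 12 regulators 11 had one, against the same 63.3%. The zinc finger gene blmp-1 had a signal of 18.4 (rank 1191) and ranked 984 in replicate 1 and 21838 in replicate 2. The epidermal GATA factor gene elt-1 (16.4) ranked 1694 in replicate 1 and 2623 in replicate 2, and the moulting receptor gene nhr-23 had a signal of 15. Median signals were 10.7 for the processing genes, 12 for the matrix genes and 11.7 for the regulators, against 10.1 over all genes. The highest signal rose with the number of candidates per gene. Over all genes its median was 8.94 with 1 candidate, 10.5 with 2 and 11.6 with 3. The medians of these lists were not matched for that number.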

How the data were processed

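ChIP-seq for UNC-62 was made in 2 biological replicates of 1 group. The authors deposited narrowPeak lists on build ce11 whose signal value per peak was made against a control, per the notes deposited with the samples. Not given in the sources used here are the aligner, peak caller, threshold on reproducibility and depth. Lists on ce10 were not used.

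Peaks were read with Python 3.11.15, numpy 2.4.6 and pandas 2.3.3, and assigned to Ensembl release 115 gene models of WBcel235, the same assembly as ce11; all peaks lay within its chromosomes. Coordinates count from 1. Sequence came from the RefSeq WBcel235 genome. Equal distances went to the lower gene identifier. Rank is 1 plus the number of peaks of higher signal in a list. Exact binomial intervals used scipy 1.17.1. No test was run: with 1 group there is no contrast, and genes are not replicates. Assignment and overlap steps were checked on simulated peaks.

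The members and gene lists were chosen with earlier results of these data known. Genes named are members with a reproducible peak, the bli, dpy, rol and sqt genes, the 10 of highest signal, those within rank 1000 in both replicates, those with most candidates, stage-linked genes, and, from the other lists, genes with a reproducible peak. As none of these had one, the genes named from those lists, and other col- genes outside the rule, were chosen after their values were seen, as were the subset of genes of at most 1500 bp, the counts per kb and the measure of repeated sequence. The names col-6 and ram-4 had no match in the annotation.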

Additional observations from a re-analysis of the deposited data

How the results depend on the processing

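Of 46 alternative values, 28 changed little: counts moved by at most 1.5 times, and a share or median stayed within its 95% interval. The cause was not tested for the others unless the setting itself gives it. A distance limit of 1000 bp left 71 collagen genes with a candidate, and the upper 50% of pooled candidates left 64, by construction. Collagen genes with a reproducible peak numbered 3 in the report, 1 within 2000 bp (col-17), 0 within 1000 bp, and 0 when all genes with a summit between 2000 bp before and 500 bp after their 5' end were counted. They numbered 1 in the 207 strongest reproducible peaks, 7 in the top 2000 pooled candidates, and 1 without replicate 1 (col-17) and 1 without replicate 2 (col-130). The median signal was 8.69 both within 1000 bp and with the window of 2000 to 500 bp, and 4.86 to 6.61 in either replicate's list alone, whose scales differ. Candidates in both replicate lists fell to 19.6% when summits had to lie within 100 bp. Promoter shares were 62% within 1000 bp, 50.5% with every gene in the window, 51.4% for promoters of 2000 to 500 bp and 17.8% for 500 to 100 bp, all partly by construction. No paired analysis was possible because there is 1 group. Read depth is unknown, so a gene without a candidate had none that ranked in these lists, which does not show absence of binding.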

Other observations

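Of 3 listed basement membrane collagen genes, 2 had a higher signal than any cuticle collagen gene outside the reproducible set, and both lay below that set. The type IV collagen gene let-2 had a candidate 841 bp upstream with a signal of 27.1 (rank 451; chromosome X 16390013 to 16390348) that ranked 824 in replicate 1 and 174 in replicate 2. The other type IV collagen gene, emb-9, had one 1819 bp upstream with a signal of 24.4 (rank 573), which ranked 461 in replicate 1 and 13268 in replicate 2. The third gene of this list, cle-1, for a type XVIII collagen, reached 8.66 and was overlapped in neither replicate list. There were 4 candidates for let-2, 3 for emb-9 and 4 for cle-1, against a median of 1 for cuticle collagen genes with a candidate. Signals were not matched for that number. Cuticle collagen genes outside the name rule were lon-3 (17), dpy-4 (14.3) and bli-6 (9.73).

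Some cuticle collagen genes hold much sequence that occurs more than once in the genome. The share of a gene's 36-base words of this kind had a median of 0.224% over the 172 members. It was not measured for other genes. The share was 99.0% for col-126, 94.2% for col-3 and 94.0% for col-117. It was 93.8% for col-168 and 89.7% for col-62. Of these 5 genes, which had the highest shares, col-3 and col-168 had a candidate. The further copies may lie in the same gene or outside it, as their place was not recorded. More than 10% of words were repeated in 22 of the 65 collagen genes without a candidate and in 21 of the 107 with one. How reads from repeated sequence were counted is not stated by the labels, and the part of repeats in the missing candidates was not tested. The windows within 100 bp of the col-17, col-130 and col-185 summits held no repeated word (0%), whereas those of col-72, col-144 and col-181 held 36.1%, 33.1% and 32.5%. The gene models of col-159 and col-160 overlap, so the nearer 5' end there depends on the annotation.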
